A study of Rattus norvegicus with 27 samples.

Results

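Transcripts of 9 Sox genes were followed in cultured rat Schwann cells, the glia that ensheath and myelinate peripheral axons. The genes were chosen by name, as Sox2, Sox4, Sox5, Sox6, Sox8, Sox9, Sox10, Sox11 and Sox13, and all 9 had a row among the 17315 genes of the cell mRNA table. All 9 also passed the filter on low counts that left 10372 genes for testing. Cells were sampled at 3 stages with 3 libraries each (9 libraries in all), and were commercial primary rat cells at passages 3 to 5, and the protocol names no neurons or axons in the cultures. In the undifferentiated group no dbcAMP (dibutyryl cyclic AMP, which enters cells and acts as cyclic AMP) was given, and the labels give nothing else of their medium at harvest. The differentiated group had 72 h of 1 mM dbcAMP in DMEM with 1% exosome-depleted serum. Dedifferentiated cells had the same treatment and then 72 h without dbcAMP in a complete medium with 10% exosome-depleted serum, forskolin and 10 ng/mL neuregulin. Stage and medium changed together, so their parts cannot be told apart. All cells had earlier passed through the complete medium and a low-serum medium overnight. The labels call the libraries biological replicates without saying whether they came from separate cultures or animals, so the p-values measure the spread between these samples.

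SOX proteins are transcription factors that bind DNA through a shared domain, the HMG box, and they are sorted into subgroups by its sequence. The SoxE subgroup (SOX8, SOX9, SOX10) shapes neural crest and glia, and SOX10 is needed at every step of the Schwann cell lineage, where it activates Egr2 and, with it, myelin genes. SOX2, of the SoxB1 subgroup, marks immature Schwann cells, reappears after nerve injury and restrains myelination. SoxC proteins (SOX4, SOX11) act in progenitor cells, and SoxD proteins (SOX5, SOX6, SOX13) lack an activation domain of their own and work with or against other SOX proteins.

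Library totals ranged from 10058735 to 16212278 estimated counts, and 3 counts correspond to a level of 0.185 to 0.298 CPM (counts scaled to a common library total). Of 7 Schwann cell markers in the table, all 7 were detected at every stage, with a summed level of 7730 to 8620 CPM in undifferentiated, 7580 to 10200 in differentiated and 17700 to 20700 in dedifferentiated libraries. The fibroblast list (6 of 6 genes in the table) summed to 24400 to 29100, 11900 to 15600 and 15900 to 19400 CPM at the 3 stages in order, nearly all of it from the collagen genes Col1a1 and Col1a2. In the same list Lum was at 0 in all 9 libraries, and Pdgfra and Dcn stayed at or below 0.884 CPM. Summed markers stayed at or below 8.26 CPM for endothelial cells, 5.09 CPM for macrophages, 1.11 CPM for oligodendrocytes and 13.3 CPM for smooth muscle or pericytes at every stage, with Cdh5, Aif1, Olig2, Mobp and Rgs5 at 0 in all libraries. The neuron list reached 937 to 1300 CPM in differentiated libraries through Nefl alone, and its other 4 genes stayed at or below 0.221 CPM. Of 6 melanocyte genes 4 had a row, and they summed to 13.9 to 17.2, 27.9 to 46.9 and 22.8 to 40.6 CPM, with Mlana at 0 in all libraries. In bulk RNA, fewer cells of a type and less RNA per cell cannot be told apart. The part of collagen-expressing cells in the results below was not tested.

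Differentiated cells held less mRNA of most of these Sox genes than undifferentiated cells. Of the 9 genes, 7 fell, where 27.9% of all tested genes were called lower, and 1 rose, where 31.7% were called higher (edgeR adjusted p under 0.05). Together 8 of 9 were called, against 59.6% of all genes. The largest fall was that of Sox9 and the smallest that of Sox10, and Sox5 was the gene that rose. The median log2 change of the 9 was -1.59, beside 0.05 for all genes tested. After withdrawal of dbcAMP 6 of the 9 rose and 2 fell, where 23.2% of all genes were called in each direction and 46.4% in either. Against undifferentiated cells 3 of the 9 were lower after withdrawal and none was higher, where 13.3% of all genes were called lower, 16.1% higher and 29.4% either way. Libraries of the compared stages did not overlap for 8, 8 and 5 of the 9 genes in these 3 comparisons, against 66.3%, 58.5% and 43.9% of all genes. The comparisons share libraries and are not independent. The 9 genes were chosen with earlier results of these data known, so their counts beside these shares are a description and not a test.

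**Figure D1:**
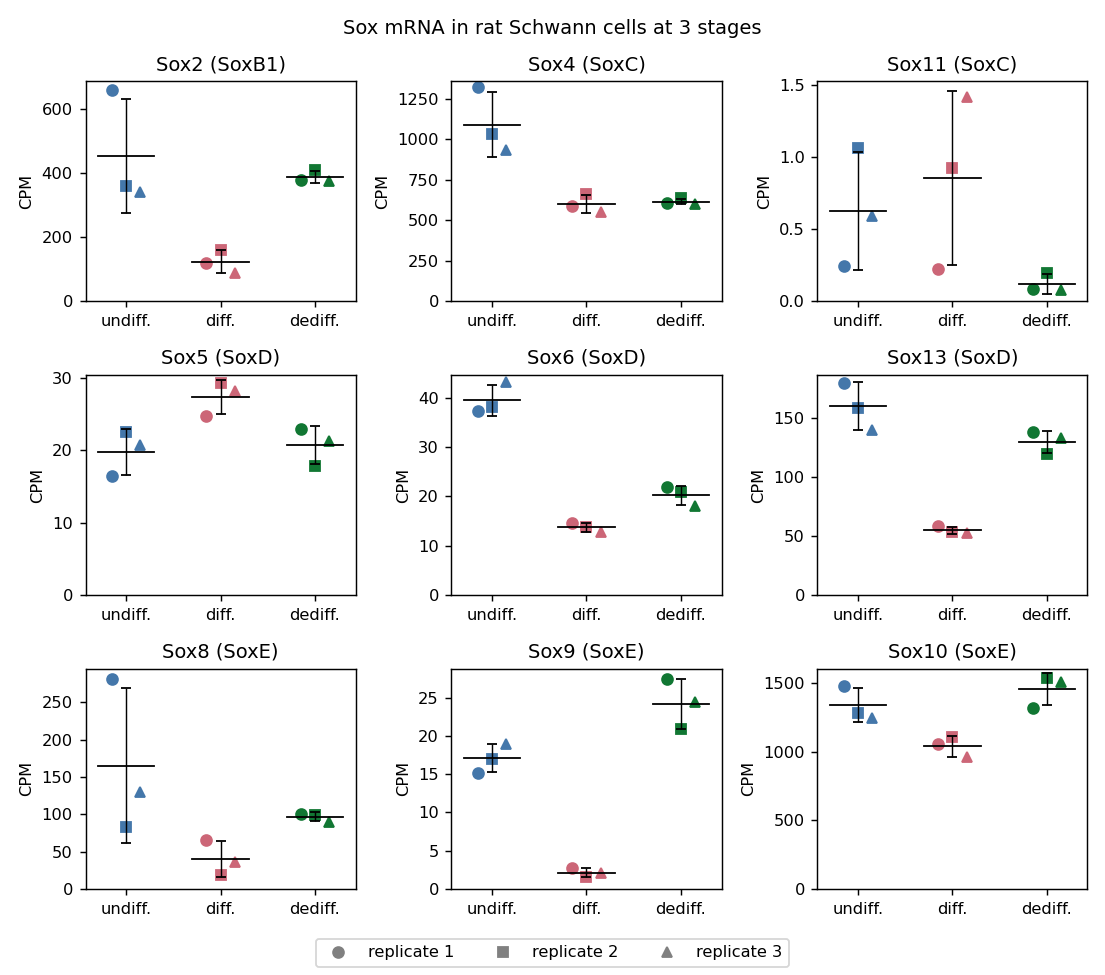
Level of each Sox gene in CPM of the library total (vertical axis from 0) in undifferentiated (blue), differentiated (red) and dedifferentiated (green) cells. Symbols are the 3 libraries of a stage by replicate number, long lines the stage means and bars 1 SD. Sox9 stays between 1.54 and 2.73 CPM in differentiated cells and between 15.2 and 27.5 CPM elsewhere, while Sox5 alone has its 3 highest libraries under dbcAMP.

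All 9 genes are named in RefSeq. In the promoter set used here (rat build GRCr8), sequences from 250 bases before to 50 after the start of a gene were matched for only 4 of them. These were the promoter sequences of Sox2, Sox6, Sox11 and Sox13. Those of the 3 matched genes that fell on differentiation and rose on withdrawal are shown 5′ to 3′ on the gene's strand, to let a reader compare genes that moved together, with CpG dinucleotides in capitals.
Sox2 (chr2:119464881-119465180, plus strand): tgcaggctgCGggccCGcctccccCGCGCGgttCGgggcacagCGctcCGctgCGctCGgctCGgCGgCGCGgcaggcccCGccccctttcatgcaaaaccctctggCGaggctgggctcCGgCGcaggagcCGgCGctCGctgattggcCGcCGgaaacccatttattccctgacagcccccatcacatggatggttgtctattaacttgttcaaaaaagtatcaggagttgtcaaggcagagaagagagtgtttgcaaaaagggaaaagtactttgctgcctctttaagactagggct
Sox13 (chr13:47427523-47427822, minus strand): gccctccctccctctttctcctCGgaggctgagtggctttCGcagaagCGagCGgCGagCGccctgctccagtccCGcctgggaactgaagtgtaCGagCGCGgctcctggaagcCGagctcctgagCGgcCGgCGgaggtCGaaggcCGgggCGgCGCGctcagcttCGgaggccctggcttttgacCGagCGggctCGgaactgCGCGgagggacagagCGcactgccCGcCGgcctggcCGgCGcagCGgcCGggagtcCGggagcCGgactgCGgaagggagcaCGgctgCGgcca
Sox6 (chr1:179665322-179665621, minus strand): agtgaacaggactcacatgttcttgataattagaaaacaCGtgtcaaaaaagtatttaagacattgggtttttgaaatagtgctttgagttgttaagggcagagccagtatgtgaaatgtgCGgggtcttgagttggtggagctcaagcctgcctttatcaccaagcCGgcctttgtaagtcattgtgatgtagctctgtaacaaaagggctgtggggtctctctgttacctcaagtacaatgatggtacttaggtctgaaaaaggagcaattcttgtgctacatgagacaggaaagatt
These windows differed widely in composition. Sox13 held 37 CpG and Sox2 held 23, more than 95.2% and 80.5% of 33469 rat promoters, whereas Sox6 held 3, below the median of 7. Sox11, whose window held 20, is not shown because its counts were too few. On both strands the cyclic AMP response element TGACGTCA, its core TGACG (contained in the former) and the SOX-type motif ACAATGG were searched. None of the 3 motifs was in any of the 4 windows, and 1.83%, 21.2% and 3.9% of all promoters held them. This says only that these letters are not in these 300 bases.

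Sox2, the immature-cell factor, measured 657, 358 and 341 CPM in the undifferentiated libraries of replicates 1, 2 and 3. In differentiated cells it measured 120, 161 and 89.2 CPM, and in dedifferentiated cells 377, 409 and 375 CPM. Every differentiated library lay below every library of the other stages, and the undifferentiated library of replicate 1 stood above all others. Sox2 fell by 1.94 on the log2 scale on differentiation (SE 0.273, edgeR adjusted p = 0.000124, lower in 3 of 3 replicates) and rose by 1.66 on withdrawal (SE 0.271, edgeR adjusted p = 0.000617). Between dedifferentiated and undifferentiated cells the libraries overlapped and the difference was not called (log2 change -0.28, 95% interval -0.86 to 0.30). Without the undifferentiated library of replicate 1 that difference was 0.12, so its direction rests on this library.

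Sox10, the lineage factor of the Schwann cell, had the smallest fall on differentiation and the smallest rise on withdrawal among the Sox genes called in those directions. Its levels were 1480, 1280 and 1250 CPM in undifferentiated cells, 1060, 1110 and 964 CPM in differentiated cells and 1320, 1540 and 1510 CPM in dedifferentiated cells. The differentiated libraries were the 3 lowest, and the other stages overlapped. The fall on differentiation was 1.34-fold (log2 change -0.42, SE 0.109, edgeR adjusted p = 0.00665) and the rise on withdrawal 1.41-fold (log2 change 0.49, SE 0.109, edgeR adjusted p = 0.00403). Dedifferentiated and undifferentiated cells were not called different (log2 change 0.07, 95% interval -0.17 to 0.31).

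Sox9, the cartilage factor that also acts in early glial specification, moved furthest in both directions. It measured 15.2, 17 and 18.9 CPM in undifferentiated cells, 2.73, 1.54 and 2.04 CPM in differentiated cells (20 to 37 counts a library) and 27.5, 20.9 and 24.4 CPM in dedifferentiated cells. The 3 stages did not overlap. Sox9 fell 8.41-fold on differentiation (log2 change -3.07, SE 0.205, edgeR adjusted p = 4.75e-07) and rose 11.6-fold on withdrawal (log2 change 3.53, SE 0.205, edgeR adjusted p = 5.03e-07). Its higher level after withdrawal than in undifferentiated cells missed the threshold (log2 change 0.46, SE 0.17, edgeR adjusted p = 0.0653, higher in 3 of 3 replicates). That difference was called with library size alone (edgeR adjusted p = 0.048), without the differentiated library of replicate 1 (0.0383) and without that of replicate 2 (0.0471).

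Sox8, which overlaps in function with Sox10 in glia, varied widely between replicates. It measured 282, 82.7 and 130 CPM in undifferentiated cells and 65.9, 18 and 35.8 CPM in differentiated cells. In both stages replicate 1 was highest and replicate 2 lowest, whereas dedifferentiated cells gave 101, 99.5 and 89.9 CPM. The fall on differentiation was 4.33-fold (log2 change -2.12, SE 0.486, edgeR adjusted p = 0.0033). It was still called with any 1 library left out, at -1.45 without the undifferentiated library of replicate 1 and at -2.69 without the differentiated library of replicate 1. The rise on withdrawal stood near the threshold (log2 change 1.29, SE 0.479, edgeR adjusted p = 0.0477), and it was 1.87 without the differentiated library of replicate 1 and 0.94 without that of replicate 2. It was not called by DESeq2's Wald test (adjusted p = 0.0744), with the sequencing project as a covariate (0.0551), or without any one dedifferentiated library, the differentiated library of replicate 2 or 3, or the undifferentiated library of replicate 3 (0.0571 to 0.132). Dedifferentiated and undifferentiated libraries overlapped (log2 change -0.83, 95% interval -1.86 to 0.20, edgeR adjusted p = 0.212). That difference was -0.17 without the undifferentiated library of replicate 1 and -1.17 without that of replicate 2, and was not called in either case.

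Sox4, a SoxC gene of progenitor cells, fell under dbcAMP and remained low afterwards. Its levels were 1320, 1030 and 931 CPM in undifferentiated, 589, 662 and 552 CPM in differentiated and 606, 635 and 603 CPM in dedifferentiated cells. The 6 libraries exposed to dbcAMP all lay below the 3 that were not. The fall on differentiation was 1.91-fold (log2 change -0.93, SE 0.137, edgeR adjusted p = 0.000174). On withdrawal the log2 change was 0.05 (95% interval -0.25 to 0.35, edgeR adjusted p = 0.802), and against undifferentiated cells it was -0.89 (SE 0.137, edgeR adjusted p = 0.000775).

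Sox11, the other SoxC gene, was close to the limit of detection. Undifferentiated libraries held 3, 11 and 9 counts, differentiated libraries 3, 12 and 23 and dedifferentiated libraries 1, 2 and 1. The differentiated and undifferentiated libraries overlapped (edgeR adjusted p = 0.589), and all 3 dedifferentiated libraries held fewer counts than any other. Summed over a stage, the level was 7.81-fold lower in dedifferentiated than in differentiated cells (38 against 4 counts, 95% interval 2.81 to 30.1, exact, counting error only). The edgeR adjusted p for this comparison was 0.025, and it rose to between 0.053 and 0.104 without the dedifferentiated library of replicate 1 or 3 or the differentiated library of replicate 2 or 3. Against undifferentiated cells the level was 5.31-fold lower (23 against 4 counts, 95% interval 1.81 to 21.1, counting error only) and was not called (edgeR adjusted p = 0.0845). It was called without the differentiated library of replicate 1 (0.0467) and with the replicate block (0.0456).

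The 3 SoxD genes, whose products pair with each other and work with or against other SOX proteins, followed different courses. Sox5 measured 16.4, 22.5 and 20.7 CPM in undifferentiated, 24.8, 29.3 and 28.2 CPM in differentiated and 23, 17.8 and 21.3 CPM in dedifferentiated cells. Its 3 differentiated libraries lay above all others. The rise was 1.33-fold (log2 change 0.41, SE 0.139, edgeR adjusted p = 0.026) and the fall on withdrawal 1.31-fold (log2 change -0.39, SE 0.139, edgeR adjusted p = 0.0399). Neither call was firm. The rise was lost without the differentiated library of replicate 2 or 3 or the undifferentiated library of replicate 1 or 3 (edgeR adjusted p = 0.0574 to 0.0843). The fall was lost without the differentiated or dedifferentiated library of replicate 2 or 3 or the undifferentiated library of replicate 3 (0.0549 to 0.147), with the replicate block (0.0519) and with the sequencing project as a covariate (0.0528). Dedifferentiated and undifferentiated cells gave a log2 change of 0.02 (95% interval -0.30 to 0.33).

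Sox6, the partner of SOX5 in cartilage, measured 37.3, 38.1 and 43.1 CPM in undifferentiated, 14.6, 13.7 and 12.7 CPM in differentiated and 21.8, 20.9 and 18.1 CPM in dedifferentiated cells. The 3 stages did not overlap, and dedifferentiated cells stood between the others. Sox6 fell 3.02-fold (log2 change -1.59, SE 0.118, edgeR adjusted p = 9.99e-07), rose 1.5-fold on withdrawal (log2 change 0.58, SE 0.119, edgeR adjusted p = 0.00257) and stayed 2.02-fold below undifferentiated cells (log2 change -1.01, SE 0.116, edgeR adjusted p = 0.000103). Sox13 measured 180, 159 and 140 CPM in undifferentiated, 58.3, 53.7 and 52.4 CPM in differentiated and 138, 120 and 133 CPM in dedifferentiated cells. Here too the stages did not overlap, and the nearest dedifferentiated and undifferentiated libraries stood at 138 and 140 CPM. Sox13 fell 3.05-fold (log2 change -1.61, SE 0.117, edgeR adjusted p = 8.93e-07) and rose 2.4-fold on withdrawal (log2 change 1.26, SE 0.116, edgeR adjusted p = 1.21e-05). It stayed 1.27-fold below undifferentiated cells (log2 change -0.34, SE 0.113, edgeR adjusted p = 0.0429). This last call was lost without the dedifferentiated or differentiated library of replicate 2 or 3 or the undifferentiated library of replicate 1 or 2 (0.057 to 0.133), and with library size alone (0.0535).

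**Figure D2:**
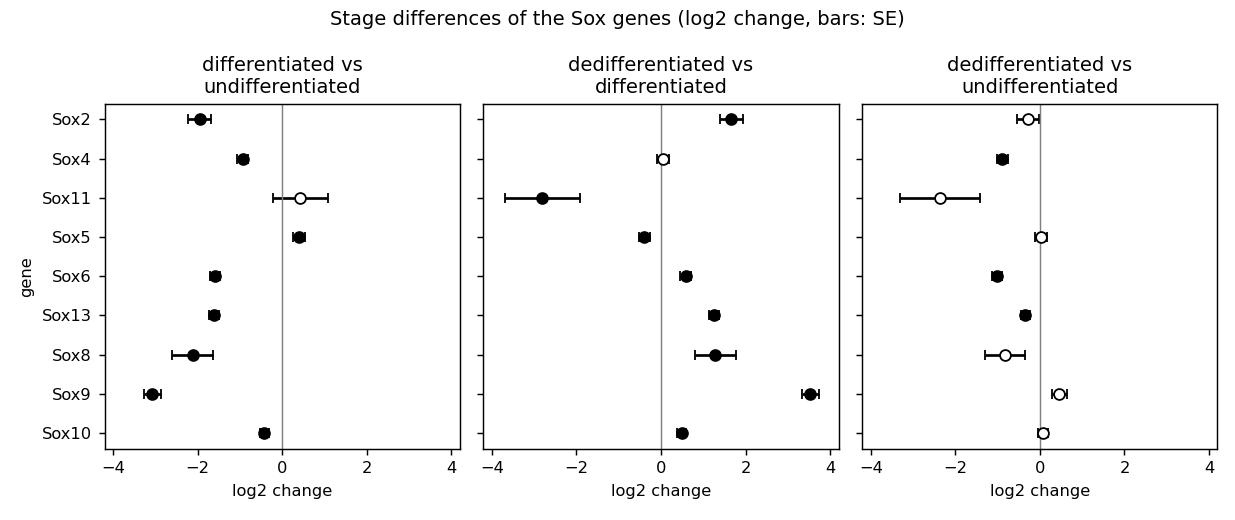
Log2 change of each Sox gene (horizontal axis) in the 3 stage comparisons, with bars of 1 SE from the edgeR fit. Filled circles passed an adjusted p of 0.05 and open circles did not. Sox9 lies furthest from 0 in the first 2 panels (-3.07 and 3.53), Sox4 stays at 0.05 on withdrawal, and in the last panel the filled circles are Sox4, Sox6 and Sox13, all below 0.

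The libraries came from 2 sequencing projects, with replicates 1 and 2 in the first and replicate 3 in the second. Within the first project, with 2 libraries a stage, 6, 4 and 2 of the 9 genes were called in the 3 comparisons in order. The 6 were Sox2, Sox4, Sox6, Sox8, Sox9 and Sox13, the 4 were Sox2, Sox6, Sox9 and Sox13, and the 2 were Sox4 and Sox6. Sox10 there changed by -0.42 on differentiation and by 0.41 on withdrawal, without passing the threshold (edgeR adjusted p = 0.0551 and 0.0831). The second project held 1 library a stage and allowed no test, and there the differences had the sign of the full fit for 9, 9 and 8 of the 9 genes. The exception was Sox2 in dedifferentiated against undifferentiated cells, at 0.11.

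Ratios of 2 genes within a library do not depend on how libraries are scaled, and they show whether the genes moved by unequal amounts. They were taken on counts, which are not corrected for transcript length, so only their change between stages is read. With 3 libraries against 3, the exact permutation test cannot go below p = 0.1, and every difference below whose libraries did not overlap had an exact two-sided p = 0.1 (0.164 after adjustment over 18 tests). The Sox2/Sox10 ratio was 2.81-fold lower in differentiated than in undifferentiated cells (log2 difference -1.49, pooled SD 0.362) and 2.31-fold higher after withdrawal, with no overlap of libraries. Sox9/Sox10 was 6.39-fold lower (log2 difference -2.68, pooled SD 0.372) and then 8.31-fold higher, also without overlap. Sox8/Sox10 was 3.24-fold lower in differentiated cells without overlap, and after withdrawal its libraries overlapped with those (exact permutation p = 0.2). Sox5/Sox6 was 4.01-fold higher in differentiated than in undifferentiated cells, with log2 ratios of -1.19, -0.76 and -1.06 in undifferentiated and 0.76, 1.10 and 1.15 in differentiated libraries. After withdrawal the Sox5/Sox6 log2 ratios were 0.08, -0.23 and 0.24, and this stage overlapped with neither of the others. Sox13/Sox6 was at a mean log2 ratio of 2.01 ± 0.29 in undifferentiated and 2.00 ± 0.03 in differentiated cells (SD, n = 3), and at 2.69 ± 0.179 after withdrawal, 1.61-fold above the differentiated cells. Sox4/Sox11 rested on 1 to 23 counts of Sox11 a library. It was 4.78-fold higher in dedifferentiated than in differentiated cells without overlap, and 2.22-fold lower in differentiated than in undifferentiated cells with overlap (exact permutation p = 0.4).

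**Figure D3:**
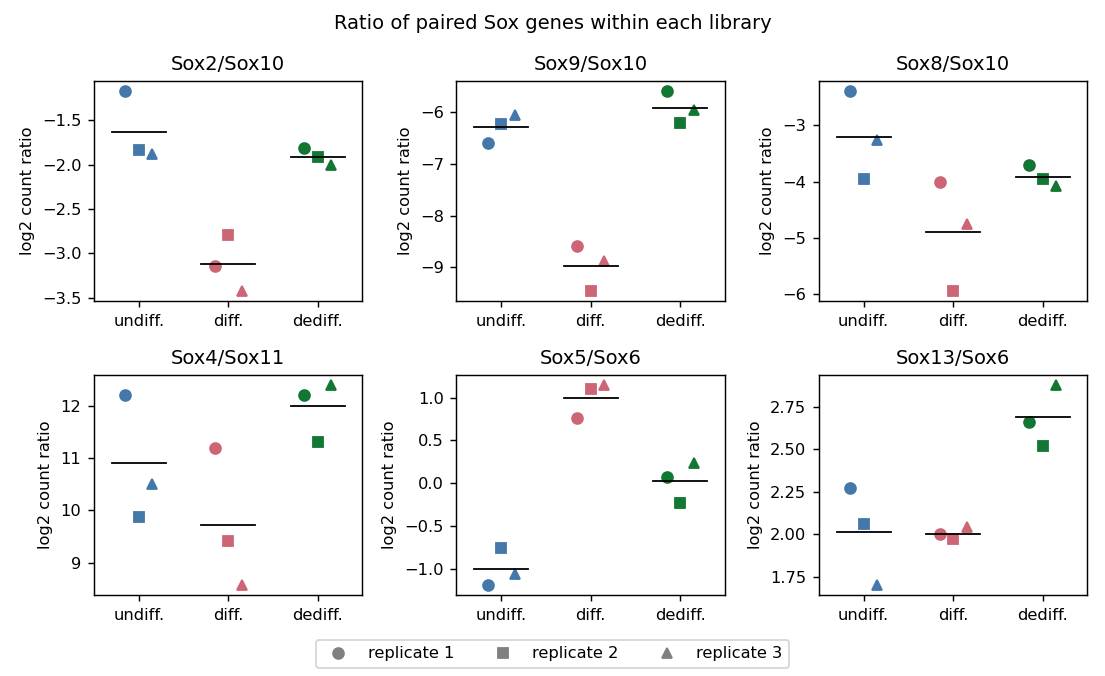
Log2 ratio of the counts of 2 Sox genes in each library (vertical axis, a separate scale in each panel) by stage, with symbols for replicate numbers and lines for stage means. Sox5/Sox6 has means of -1, 1 and 0.03 at the 3 stages in order, while Sox13/Sox6 is near 2 in undifferentiated and differentiated cells and 2.69 after withdrawal.

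The genes nearest to each Sox gene in pattern were found by the root mean square (RMS) difference of mean-centred log2 CPM over the 9 libraries. Candidates were the tested genes, without the 9 Sox genes and without genes that carry only a placeholder name, such as LOC or RGD. Among the Sox genes themselves, Sox2 and Sox13 were nearest to each other (0.33), and Sox4 and Sox6 were nearest to each other (0.344). Calhm2 and Ngfr, the low-affinity neurotrophin receptor of immature Schwann cells, were nearest to Sox2 (RMS 0.269 and 0.276). Ngfr measured 5290, 4160 and 3820 CPM in undifferentiated, 1250, 1050 and 1140 CPM in differentiated and 3570, 3770 and 3830 CPM in dedifferentiated cells. Nearest to Sox9 were Pde1c, a cyclic nucleotide phosphodiesterase, and the dynamin Dnm3 (RMS 0.282 and 0.288, against an RMS of 1.56 for Sox9 around its own mean). Pde1c measured 116, 149 and 141 CPM, then 13.1, 13.2 and 15.2 CPM, then 148, 132 and 137 CPM at the 3 stages in order. Sox10 was matched by Tmem57 and by the actin-nucleation subunit gene Arpc1a (0.0763 and 0.0773), Sox13 by Fhl1 and Arhgef19 (0.105 and 0.116), and Sox6 by Synj2 and the kinesin gene Kif1c (0.134 and 0.135). For Sox4 they were Zfp354c and Nipsnap3b (0.118 and 0.121), for Sox5 Gemin8 and the proton pump subunit gene Atp6v0a1 (0.0724 and 0.0779), and for Sox8 Prrx2 and Murc (0.353 and 0.37). Tgm2 and Slc12a5 were nearest to Sox11 (0.34 and 0.418). Around their own means Sox10, Sox5 and Sox4 had an RMS of only 0.242, 0.238 and 0.448. Small differences are easier to reach for such genes, so the values do not rank the matches between Sox genes. Prrx2, Murc, Tgm2 and Slc12a5 all stayed at or below 3.87 CPM.

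Genes known as SOX10 targets in Schwann cells mostly rose on differentiation while Sox10 itself fell slightly. Of 17 listed targets, 15 were tested, and 14 rose and 1 fell on differentiation, where 31.7% of all genes were called higher. Their median log2 change was 2.84, beside 0.05 for all genes. Egr2, the myelin transcription factor, measured 1.37, 14 and 2.62 CPM in undifferentiated, 647, 800 and 663 CPM in differentiated and 176, 108 and 103 CPM in dedifferentiated cells. Gjb1, the connexin of non-compact myelin, was at or below 0.0961 CPM in undifferentiated libraries and at 61.3, 37.7 and 40.6 CPM in differentiated libraries. Cdh19, a cadherin of Schwann cell precursors, was the target that fell, from 198, 280 and 273 to 58.3, 41.8 and 53.7 CPM (log2 change -2.34, edgeR adjusted p = 4.74e-07). On withdrawal 6 targets rose, 5 fell and 4 were not called, where 23.2% of all genes were called in each direction. Cdh19 was among the first, at 304, 256 and 312 CPM, and Egr2 (log2 change -2.43) and Pou3f1 (-3.08) were among the second (adjusted p from edgeR 0.00185 and 1.95e-06). Against undifferentiated cells 14 targets were higher, where 16.1% of all genes were, and none was lower, with a median log2 change of 3.28, while Sox10 differed by 0.07.

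The list of immature Schwann cell genes around SOX2 moved in both directions. Of 11 tested, 6 fell and 3 rose on differentiation, 6 rose and 4 fell on withdrawal, and 1 was higher and 3 lower against undifferentiated cells. Of all genes, 27.9% fell and 31.7% rose on differentiation, 23.2% went each way on withdrawal, and 16.1% were higher and 13.3% lower against undifferentiated cells. The list's median log2 changes were -1.02, 0.75 and -0.30, and those of Sox2 were -1.94, 1.66 and -0.28. Jun, the AP-1 factor of repair cells, measured 2770, 1930 and 2430 CPM, then 267, 258 and 201 CPM, then 1860, 2190 and 2110 CPM at the stages in order. Gap43, a growth-associated protein, was at 744, 866 and 859 CPM in undifferentiated cells, at or below 0.442 CPM under dbcAMP and at 164, 126 and 120 CPM afterwards. Id2, an inhibitor of basic helix-loop-helix factors, went the other way, with log2 changes of 5.14 on differentiation and -2.71 on withdrawal (adjusted p from edgeR 1.01e-06 and 7.98e-05). Notch1 also rose, by 0.67, and fell by 0.99 on withdrawal (edgeR adjusted p = 0.0026 and 0.000335).

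Partners and cofactors of SOX proteins showed no common direction on differentiation or withdrawal. Of 15 tested, 5 rose and 6 fell on differentiation, 5 rose and 4 fell on withdrawal, and 3 were higher and 6 lower against undifferentiated cells, with median log2 changes of 0.02, -0.02 and -0.07. The first 2 pairs of counts lie near the shares of all genes, 31.7% higher and 27.9% lower on differentiation and 23.2% each way on withdrawal. Against undifferentiated cells the 6 of 15 called lower were a larger share than the 13.3% of all genes. The 3 called higher stand beside 16.1%. Pou3f2, a POU factor that pairs with SOX proteins, measured 21.7, 14.2 and 18 CPM in undifferentiated, 113, 81 and 82.4 CPM in differentiated and 152, 127 and 114 CPM in dedifferentiated cells. Nfatc4, a calcineurin-regulated partner of SOX10, measured 40, 40.7 and 38.7 CPM, then 7.07, 8.33 and 5.86 CPM, then 23.1, 21.1 and 22.9 CPM. Its log2 change was -2.56 on differentiation and 1.68 on withdrawal (edgeR adjusted p = 9.61e-08 and 5.37e-06). Yap1, a Hippo pathway coactivator, fell by 0.96 and stayed below undifferentiated cells by a log2 change of -0.77 (edgeR adjusted p = 3.78e-06 and 7.94e-05). Smarca4, the ATPase of a chromatin remodelling complex that SOX10 recruits, measured 206, 221 and 222 CPM, then 337, 363 and 349 CPM, then 218, 208 and 211 CPM. It rose on differentiation (log2 change 0.63) and fell on withdrawal (-0.71, both at an edgeR adjusted p of 1.52e-05), and was not called different from undifferentiated cells (-0.075, edgeR adjusted p = 0.443).

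Cartilage genes known to be driven by SOX9 with SOX5 and SOX6 were mostly too low to test. Of 14 listed, 11 had a row and 5 were tested, of which 2 fell and 2 rose on differentiation, 2 rose and 1 fell on withdrawal and 1 was higher against undifferentiated cells. The shares of all genes called either way were 59.6%, 46.4% and 29.4% in the 3 comparisons, and counts out of 5 are too coarse to set apart from them. Col11a1, a fibrillar collagen of cartilage, measured 117, 113 and 112 CPM, then 44.7, 22.6 and 35.1 CPM, then 185, 121 and 137 CPM at the stages in order. Its log2 changes were -1.79 and 2.12 (adjusted p from edgeR 5.67e-05 and 3.55e-05). Col9a2 fell by 1.45 and rose by 1.32 (edgeR adjusted p = 0.000459 and 0.00144). Fgfr3, a growth factor receptor of the growth plate, rose by 1.44 and fell by 0.84 on withdrawal (edgeR adjusted p = 8.73e-05 and 0.00402), and Comp rose by 1.01 on differentiation (0.0048).

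**Figure D4:**
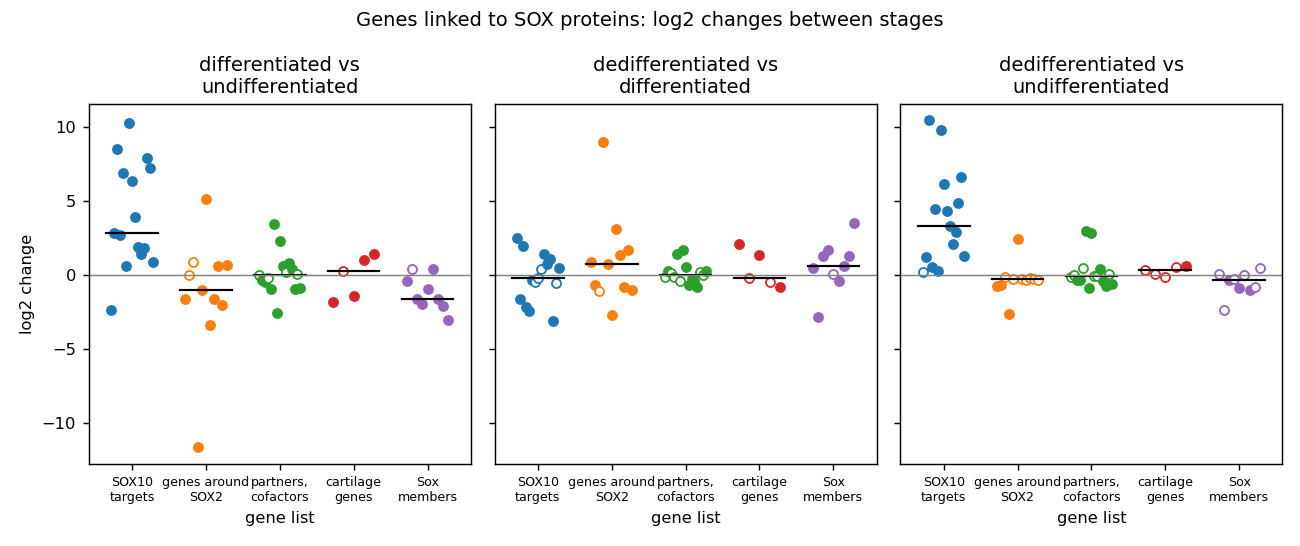
Log2 change (vertical axis) of every tested gene of 4 lists and of the 9 Sox genes in the 3 stage comparisons, ordered by name within a list, with lines at the list medians. Filled circles passed an edgeR adjusted p of 0.05 and open circles did not. The SOX10 targets have medians of 2.84 and 3.28 against undifferentiated cells, where the Sox genes have -1.59 and -0.34.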

How the data were processed

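The authors deposited estimated counts per gene, made with Salmon per the submitters' processing notes. The build and annotation are not given in the sources used here. Columns were matched to samples by library code and stage, and replicate numbers follow the sample titles, with which the columns' own replicate suffix disagrees. Counts were rounded to whole numbers; all values of the 9 Sox genes were already whole (tolerance 0.001). CPM is the count over the library total.

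Genes were filtered with filterByExpr (minimum count 10), scaled by TMM and tested with edgeR 4.0.16 in R 4.3.3, in a quasi-likelihood fit of all 9 libraries without covariates. Adjusted p-values (Benjamini-Hochberg) cover all genes tested. DESeq2 1.42.0 served as an alternative. The fit was also run on counts simulated from its own spread, without effects of replicate or sequencing project. That run therefore cannot show how the fit deals with such effects. For ratios, 0.5 was added to each count. The Sox genes and all lists were chosen with earlier results of these data known. Of a list, up to 2 called genes a direction with the largest change and no overlap could be named in a comparison. RefSeq protein sequences were not used here, and the vesicle tables were not analysed here.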

Additional observations from a re-analysis of the deposited data

How the results depend on the processing

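The numbers of Sox genes called (8, 8 and 3 in differentiated against undifferentiated, dedifferentiated against differentiated and dedifferentiated against undifferentiated cells) stayed within 1.5 times under the other normalisations, filters, covariates and the Wald test of DESeq2. In the first sequencing project alone 4 were called on withdrawal, with 2606 of all genes against 4809, and 1283 against 3045 for dedifferentiated against undifferentiated cells. That fit has fewer samples. Leaving out 1 library gave 7 to 8, 5 to 8 and 2 to 5 Sox genes. The 5 on withdrawal came without the dedifferentiated library of replicate 3 or the differentiated library of replicate 2 or 3, and the 5 against undifferentiated cells without the differentiated library of replicate 1.

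The replicate block gave 8, 7 and 4 Sox genes. It lost the fall of Sox5 on withdrawal and called Sox11 lower against undifferentiated cells (edgeR adjusted p = 0.0456), and it changed no other call. Deviations of same-numbered libraries correlated at 0.304, 0.234 and 0.269 between differentiated and undifferentiated cells, where the block called 8 genes as before. In the comparisons with dedifferentiated cells they correlated at 0.028 to 0.211, and replicate 2 stayed under 0.1 in both. In 15 of 18 matches a library correlated best with its own number, a hint of pairing from the data that the labels do not give. Each match was a choice among the 3 libraries of another stage. The matches reuse the same 9 libraries, so they are not independent, and their number was not tested. Replicate 3 alone came from the second sequencing project at every stage, and the part of the project in these correlations was not tested.

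The reversals were all of differences that were not called. For dedifferentiated against undifferentiated cells, Sox5 (log2 change 0.017) was -0.016 with DESeq2's size factors, -0.015 by the Wald test, -0.0168 without the 10 most abundant genes and -0.0035 without a filter, and ranged from -0.0895 to 0.0904 with 1 library left out. Sox10 was -0.0102 in the first project, and Sox2 ranged from -0.47 to 0.12 with 1 library left out. Sox4 on withdrawal ranged from -0.0186 to 0.115. Sox11 on differentiation was -0.22 in the first project and ranged from -0.16 to 0.92. The cause was not tested. The filter of at least 10 counts in every library left out Sox11. The ratios between Sox genes kept within 1 SD with other added counts and with 1 library left out. Depth limits Sox11 most, with 1 to 23 counts a library, and then Sox9 in differentiated cells, with 20 to 37.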

Other observations

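Outside the 9 genes, 6 other numbered Sox genes had a row, and 2 of them were tested. Sox7, a SoxF gene known from endothelial cells, measured 22.6, 9.33 and 18.8 CPM in undifferentiated, 0.516, 0.849 and 0.617 CPM in differentiated and 9.41, 4.37 and 4.81 CPM in dedifferentiated cells. Its log2 changes were -4.74 on differentiation and 3.24 on withdrawal (SE 0.461 and 0.476, edgeR adjusted p = 8.01e-06 and 0.000312), further from 0 than that of Sox9 on differentiation. Against undifferentiated cells Sox7 stayed lower (log2 change -1.50, SE 0.36, edgeR adjusted p 0.0101), with libraries that overlapped. The 5 endothelial markers summed to 1.21 to 3.08, 5.67 to 8.26 and 3.98 to 7.88 CPM at the 3 stages in order. Most of this was Tek, at 0.645 to 2.21, 4.79 to 7.56 and 3.28 to 7.29 CPM, which was called higher on differentiation (log2 change 2.37, edgeR adjusted p = 0.000851) and against undifferentiated cells (2.06, edgeR adjusted p = 0.00588). Cdh5 was at 0 in all libraries, Emcn at or below 0.0752, Kdr at or below 0.589 and Pecam1 at or below 0.673 CPM. The part of endothelial cells in the Sox7 levels was not tested. Sox12, the remaining SoxC gene, measured 30.9, 31 and 30.6 CPM, then 34, 27.3 and 34.1 CPM, then 33.7, 43.7 and 41.3 CPM at the stages in order, and was not called in any comparison. Sox14, Sox15 and Sox18 stayed at or below 0.386 CPM, and Sox17 had no counts.

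Tyrp1, a pigment enzyme gene singled out after its values were seen, had no counts in undifferentiated libraries, lay between 13.1 and 33.8 CPM in differentiated libraries and was at or below 0.509 CPM after withdrawal. Mitf, the melanocyte factor that SOX10 activates, lay between 13.9 and 17.2, 13 and 16.6, and 22.6 and 39.9 CPM at the same stages.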
